A study of Homo sapiens with 10 samples.

Results

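The 41 genes described here are the WNT ligands, their co-receptors and the components that carry or restrain the signal, in RNA-seq of a human embryonic stem cell line. They were chosen by symbol, and each symbol matched exactly 1 of the 55841 Ensembl identifiers in the deposited count table. By role they are 19 WNT ligands, 4 R-spondins, 2 genes for ligand maturation and export, 4 co-receptors or R-spondin receptors, 3 genes for beta-catenin and its destruction complex, 4 TCF/LEF factors and 5 inducible feedback inhibitors. Frizzled receptors and secreted WNT antagonists were left out by the rule. A general population, meaning unsorted cells of the culture, was compared with HHH, the fraction sorted by flow cytometry for the highest levels of the surface antigens GCTM-2, CD9 and EPCAM. Both populations were grown in mTESR1 medium on Matrigel, with no treatment or engineered allele in the labels, and each had 5 libraries. Batch 1, as named in the titles, held 2 general and 2 HHH libraries, and batch 2 held 3 of each. The labels call the line HES9 whereas the methods of the study name WA09, and the deposit's design text speaks of protein kinase C inhibitors that no library label carries. All libraries come from 1 line. Nothing states that they came from separate cultures, so the p-values measure the spread between these libraries.

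WNT ligands are secreted lipid-modified proteins that bind Frizzled receptors together with LRP5 or LRP6. In the canonical branch this stops the destruction complex from degrading beta-catenin, which then enters the nucleus and acts with TCF/LEF factors on target genes. In human pluripotent stem cells, low WNT activity goes along with self-renewal and higher activity with entry into primitive streak, mesoderm and endoderm. Total counts ran from 47242595 to 78503395 per library. Levels below are CPM, counts scaled to a common TMM-adjusted library size. The limit of detection was set at 3 counts, equal to 0.0459 to 0.0686 CPM and covering counting error only. All 8 pluripotency markers checked had a mean of at least 1 CPM in both populations, and their summed level in batch 1 was 4203 to 4722 CPM in the general libraries and 3908 to 4066 CPM in HHH. In batch 2 it was 4475 to 4875 CPM in the general libraries and 4957 to 5148 CPM in HHH, so the sum lay lower in HHH in batch 1 and higher in batch 2. LIN28A was the largest part of the sum, in batch 1 at 1704 and 2046 CPM in general and 1464 and 1489 CPM in HHH. None of the 8 markers passed in batch 1, where 5 log2 fold changes were negative and 3 positive. Over both batches NANOG was higher and SOX2 lower in HHH, beside 1.94% and 3.89% of all genes. In batch 2 TDGF1, NANOG and DPPA4 were higher, beside 5.13% of all genes.

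Across both batches 5 members were lower in HHH at an adjusted p under 0.05 and none was higher. The 5 were WNT4, WNT2B and WNT5A among the ligands, the R-spondin receptor LGR4, and NOTUM, a secreted enzyme that removes the lipid from WNT proteins and is itself induced by the pathway. Of the 41 members, 28 passed the filter on low counts and were tested. Among all 23552 genes tested, 3.89% were lower and 1.94% higher in HHH by the same rule. The 5 members were also over the limit of a 1.5-fold change, which 2.34% of all genes passed in the lower direction and 0.637% in the higher. At an unadjusted p under 0.05, 8 members were lower, beside 10.8% of all genes, and 1 was higher, beside 10.1%. The median log2 fold change (HHH over general) of the 28 tested members was -0.13, beside 0.02 for all genes tested. The 28 are not all members, and WNT4 passed the filter only through its general libraries, so it had to differ. In addition, the study named WNT4 as lower in the sorted fraction from the same libraries, so its direction is not independent evidence here. In bulk RNA a smaller number of cells of a type and less RNA per cell cannot be told apart.

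The promoters of the members that fell and have a single start in the RefSeq table are shown because they differ in base composition although both genes were lower in HHH. The 250 bases before the start of WNT4 lie at chr1:22143098-22143347 on the minus strand, and those of LGR4 at chr11:27472791-27473040 on the minus strand, both in GRCh38.p14. Capitals mark the GC box, GGGCGG on either strand, with overlapping matches merged.
WNT4: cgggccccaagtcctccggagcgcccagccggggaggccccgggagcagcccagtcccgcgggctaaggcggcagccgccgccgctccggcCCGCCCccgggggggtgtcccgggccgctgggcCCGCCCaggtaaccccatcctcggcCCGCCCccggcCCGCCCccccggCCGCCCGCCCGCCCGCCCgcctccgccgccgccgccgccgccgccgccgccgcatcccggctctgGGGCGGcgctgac
LGR4: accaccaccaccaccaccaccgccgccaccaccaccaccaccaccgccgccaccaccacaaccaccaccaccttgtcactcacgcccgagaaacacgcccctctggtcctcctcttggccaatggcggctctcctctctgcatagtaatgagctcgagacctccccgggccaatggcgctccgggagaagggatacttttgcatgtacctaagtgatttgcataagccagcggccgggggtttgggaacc
The WNT4 window was 86.8% G and C with 9 GC boxes, and the LGR4 window was 62.0% G and C with 0. RefSeq held windows for 31 of the 41 members, 41 windows in all, and a GC box was in 25 of them (61.0%), beside 42.6% of all 35116 windows in the table. The TCF/LEF letters CTTTGAA or CTTTGAT, searched on both strands, were in 0 of the 41 windows of members and in 5.94% of all windows. A match or its absence describes these letters in this window only.

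Of the 19 WNT ligands, 13 stayed below 1 CPM in every library, and WNT5A, which acts mostly through non-canonical branches, was the 1 ligand above 1 CPM in all 10. WNT5A ranged from 2.15 to 4.40 CPM. Another 5 ligands lay on both sides of the limit: WNT5B was below 1 CPM in 2 libraries, WNT9A in 5, WNT3 in 6, WNT4 in 7 and WNT2B in 9. The 13 below the limit throughout were WNT1, WNT2, WNT3A, WNT6, WNT7A, WNT7B, WNT8A, WNT8B, WNT9B, WNT10A, WNT10B, WNT11 and WNT16. The highest value in any library was 0.252 CPM for WNT3A, 0.291 for WNT8A, 0.864 for WNT8B, 0.533 for WNT10B, 0.173 for WNT11 and 0.318 CPM for WNT16. WNT7A and WNT9B reached 0.114 CPM and WNT7B 0.0686 CPM. WNT1, WNT2, WNT6 and WNT10A never reached 3 counts in any library, with highest counts of 2, 2, 1 and 2, and WNT1 was at 0 in 9 of 10 libraries. WNT3A, the ligand most used to activate the canonical pathway in culture, had 88 counts over the 10 libraries together.

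**Figure D1:**
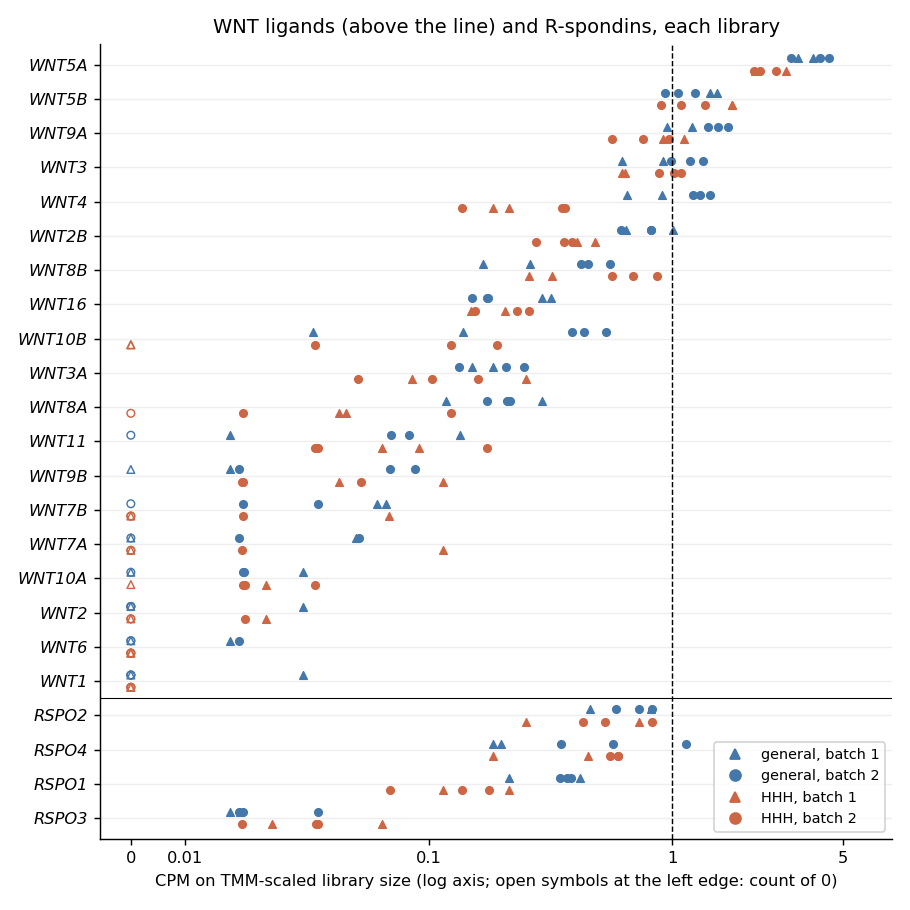
CPM (log axis) of the 19 WNT ligands and 4 R-spondins in each of the 10 libraries, with general libraries in blue above HHH libraries in orange, triangles for batch 1 and circles for batch 2, and open symbols for a count of 0. The dashed line is 1 CPM, which WNT5A passed in every library and 13 ligands in none.

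From 1 to 5 ligands reached 1 CPM in a library, and 1 to 5 ligands had no count. Summed over the 19 ligands, the level was 9.97 and 9.32 CPM in the general libraries of batch 1 and 11.4, 11.8 and 10.8 CPM in those of batch 2. In HHH the sum was 6.98 and 8.12 CPM in batch 1 and 7.07, 7.46 and 7.10 CPM in batch 2. All HHH sums were thus below all general sums. The sum is of counts that depend on transcript length, so it is not a number of molecules.

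WNT4, a ligand with roles in kidney and female gonad development, was higher in every general library than in any HHH library. The general libraries were at 0.903 and 0.653 CPM in batch 1 and at 1.30, 1.42 and 1.22 CPM in batch 2. The HHH libraries were at 0.214 and 0.183 CPM in batch 1 and at 0.137, 0.363 and 0.353 CPM in batch 2. In the edgeR quasi-likelihood test over both batches the log2 fold change was -2.12 ± 0.24 (SE), a fall of 4.35-fold at an adjusted p of 8.77e-05. Each batch fitted alone gave -1.97 ± 0.42 in batch 1 (adjusted p = 0.102, not passed) and -2.21 ± 0.28 in batch 2 (adjusted p = 0.000309).

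WNT2B, another ligand of the canonical branch, was at 0.643 and 1.01 CPM in the general libraries of batch 1 and at 0.815, 0.614 and 0.816 CPM in those of batch 2. HHH had 0.407 and 0.480 CPM in batch 1 and 0.360, 0.276 and 0.389 CPM in batch 2. The populations did not overlap, and the log2 fold change was -1.03 ± 0.21 (adjusted p = 0.00759) over both batches, -0.89 ± 0.38 in batch 1 (adjusted p = 0.382) and -1.14 ± 0.25 in batch 2 (adjusted p = 0.0124). The call was lost over both batches with no batch term (adjusted p = 0.0575) and in batch 2 without general batch 2 replicate 3 (0.0550). In GENCODE 44, 21.5% of the exon bases of WNT2B are shared with ST7L on the opposite strand, and the use of strand in the counting is not given in the sources used here, so reads of these genes may be mixed.

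WNT5A was at 3.77 and 3.27 CPM in the general libraries of batch 1 and at 4.02, 4.40 and 3.08 CPM in those of batch 2. HHH had 2.18 and 2.93 CPM in batch 1 and 2.66, 2.30 and 2.15 CPM in batch 2. All HHH libraries were below all general ones. The log2 fold change was -0.60 ± 0.14, a fall of 1.52-fold, at an adjusted p of 0.0170 over both batches. It was -0.47 ± 0.23 in batch 1 (adjusted p = 0.451) and -0.70 ± 0.16 in batch 2 (adjusted p = 0.0134). The call over both batches was lost without HHH batch 2 replicate 2 (adjusted p = 0.0590), general batch 2 replicate 1 (0.0540) or general batch 2 replicate 2 (0.0544), and with no batch term (0.110). The call in batch 2 was lost without HHH batch 2 replicate 3 (0.0508).

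WNT9A and WNT10B passed in batch 2 and, as designed, not in the other comparisons. WNT9A was at 1.54, 1.40 and 1.70 CPM in the general libraries of batch 2 and at 0.566, 0.760 and 0.971 CPM in HHH, with no overlap and a log2 fold change of -1.02 ± 0.21 (adjusted p = 0.00861). In batch 1 its general libraries, at 0.949 and 1.21 CPM, overlapped with HHH at 1.11 and 0.915 CPM, and the log2 fold change was -0.09 ± 0.30 (adjusted p = 0.931). Over both batches it was -0.65 ± 0.21 (adjusted p = 0.0849), and it passed there with no filter (0.0187), with DESeq2 (0.0419) and without general batch 1 replicate 1 (0.0436) or HHH batch 1 replicate 2 (0.0476). In the fit blocked by replicate number it was -0.80 and passed (adjusted p = 0.0482), in a design where general batch 1 replicate 1 and HHH batch 1 replicate 3 have no partner and add nothing to the contrast. WNT10B, a ligand known from bone and fat cell differentiation, had 25, 22 and 32 counts in the general libraries of batch 2 and 2, 11 and 7 counts in HHH, a log2 fold change of -1.95 ± 0.42 (adjusted p = 0.0109). In batch 1 it had 9 and 2 counts in the general libraries and 0 in both HHH libraries, and was not tested. It passed the filter in batch 2 only through the general libraries, so it had to differ there, and the call was lost without general batch 2 replicate 3 (adjusted p = 0.0515). Over both batches it did not reach the filter, and with no filter it passed (adjusted p = 4.2e-05).

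The other tested ligands did not pass in the fits as designed, and of these WNT8A did pass under some alternatives. WNT3, a ligand needed for the primitive streak, was at 0.620 to 1.33 CPM in the general libraries and 0.621 to 1.08 CPM in HHH, with a log2 fold change of -0.25 ± 0.17 over both batches (adjusted p = 0.412). WNT5B, close in sequence to WNT5A, was at 0.930 to 1.52 CPM and 0.901 to 1.76 CPM, with 0.14 ± 0.15 (adjusted p = 0.646). WNT8B, a ligand of the developing forebrain, was at 0.52 ± 0.22 (adjusted p = 0.181) over both batches, where the HHH libraries alone would carry it past the filter and the general libraries, 4 of 5 over the filter's limit, would not. It was the member higher at an unadjusted p under 0.05. Its HHH libraries of batch 2, at 0.566, 0.864 and 0.689 CPM, lay above the general ones at 0.555, 0.421 and 0.450 CPM, whereas those of batch 1 overlapped. WNT16 was at 0.150 to 0.318 CPM in the general libraries and 0.150 to 0.259 CPM in HHH. WNT8A was tested in batch 2 alone, with 10, 12 and 13 counts in the general libraries and 0, 1 and 7 in HHH, at a log2 fold change of -2.07 ± 0.68 (adjusted p = 0.0612). It passed the filter there only through the general libraries, so it had to differ. In batch 2 WNT8A passed with the replicate block (adjusted p = 0.0401), with limma and voom (0.0215), with no filter (0.0190) and without HHH batch 2 replicate 3 (0.0140). On leaving out 1 library of batch 2 its log2 fold change was -4.24 to -1.49. Over both batches, where it did not reach the filter, it passed with no filter (adjusted p = 0.00116).

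**Figure D2:**
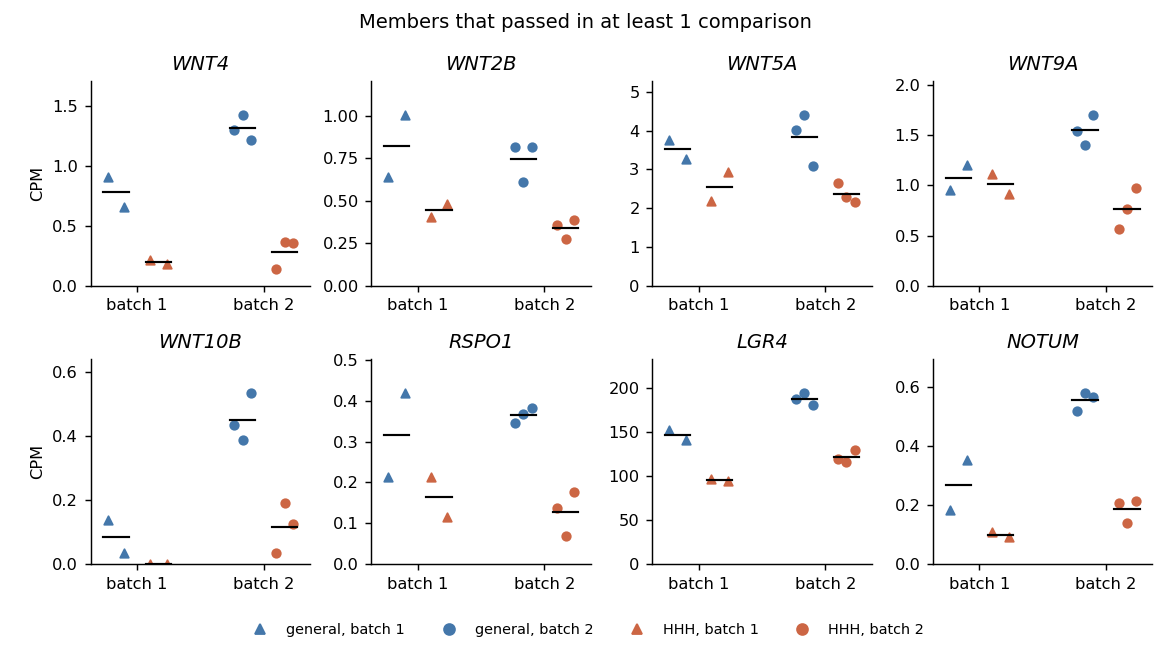
CPM (linear axes from 0) in each library of the 8 members with an adjusted p under 0.05 in at least 1 comparison, by batch, with general in blue, HHH in orange and a black bar at the mean of each group. LGR4, WNT4, WNT2B and WNT5A were lower in every HHH library than in any general library, while WNT9A overlapped in batch 1.

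R-spondins are secreted proteins that strengthen WNT signals by binding LGR4, LGR5 and related receptors and removing the ubiquitin ligases ZNRF3 and RNF43 from the cell surface. All 4 were low: RSPO1 reached 0.419 CPM, RSPO2 0.824 CPM and RSPO3 0.0643 CPM, and RSPO4 was above 1 CPM in 1 library, general batch 2 replicate 3, at 1.13 CPM. RSPO1 was at 0.214 and 0.419 CPM in the general libraries of batch 1 and at 0.347, 0.368 and 0.383 CPM in those of batch 2. HHH had 0.214 and 0.114 CPM in batch 1 and 0.137, 0.0691 and 0.177 CPM in batch 2. The nearest libraries, both in batch 1, were at about the same level. RSPO1 fell in batch 2 (log2 fold change -1.52 ± 0.37, adjusted p = 0.0183), where it passed the filter only through the general libraries, and not in batch 1 (-0.92 ± 0.57, adjusted p = 0.554). The call in batch 2 was lost without HHH batch 2 replicate 2 (adjusted p = 0.0679) or general batch 2 replicate 3 (0.0673). RSPO2 and RSPO4 were tested over both batches and had log2 fold changes of -0.30 ± 0.27 (adjusted p = 0.566) and 0.04 ± 0.33 (adjusted p = 0.963).

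LGR4 was the member with the lowest adjusted p over both batches and in batch 1, though not in batch 2, and the 1 member that passed in each batch alone. Its general libraries were at 152 and 141 CPM in batch 1 and at 187, 194 and 181 CPM in batch 2. The HHH libraries were at 97.1 and 94.4 CPM in batch 1 and at 119.5, 116 and 129.5 CPM in batch 2. All HHH libraries were below all general ones. The log2 fold change was -0.62 ± 0.06 over both batches (adjusted p = 4.32e-05), -0.62 ± 0.11 in batch 1 (adjusted p = 0.0485) and -0.63 ± 0.08 in batch 2 (adjusted p = 0.000346), a fall of 1.54-fold, 1.54-fold and 1.55-fold. The call in batch 1 was lost with library size only as the scaling (adjusted p = 0.0552), with limma and voom (0.0511), without general batch 1 replicate 1 (0.127) and without HHH batch 1 replicate 2 (0.171). LGR5, the related receptor known as a stem cell marker of the gut, was at 0.0877 to 0.452 CPM in the general libraries and 0.172 to 0.572 CPM in HHH, with a log2 fold change of 0.49 ± 0.40 (adjusted p = 0.522).

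PORCN, the enzyme that attaches the lipid to WNT proteins, was at 6.50 to 8.14 CPM in the general libraries and 5.65 to 7.17 CPM in HHH, with a log2 fold change of -0.15 ± 0.10 (adjusted p = 0.427). Its HHH libraries were above the general ones in batch 1 and below them in batch 2. WLS, which carries the finished ligands to the cell surface, was at 4.43 and 2.75 CPM in the general libraries of batch 1 against 1.61 and 2.04 CPM in HHH. In batch 2 it was at 3.00, 2.91 and 2.80 CPM in the general libraries against 2.87, 3.28 and 3.02 CPM in HHH. The log2 fold change was -0.99 ± 0.28 in batch 1 (adjusted p = 0.209), 0.07 ± 0.13 in batch 2 (adjusted p = 0.772) and -0.33 ± 0.19 over both (adjusted p = 0.353). The difference between batches had the lowest adjusted p of the members, 0.0982 in the test of the interaction, and did not pass.

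The co-receptors LRP5 and LRP6 were present in all libraries and did not pass in any comparison. LRP6 ran from 126 to 142 CPM in the general libraries and from 107 to 140 CPM in HHH (log2 fold change -0.10 ± 0.08, adjusted p = 0.509), and LRP5 from 32.1 to 40.0 CPM and from 25.7 to 41.9 CPM (-0.07 ± 0.12, adjusted p = 0.769). The lowest value of both was in HHH batch 2 replicate 3. On the log2 scale against the general mean of batch 2, LRP5 was at -0.60 there, and at -0.08 and -0.10 in the other HHH libraries. This library was also the lowest HHH library of batch 2 for TCF7 (-0.66), PORCN (-0.51), AXIN2 (-0.42), NKD1 (-0.41), AXIN1 (-0.40), TCF7L1 (-0.33) and ZNRF3 (-0.31), but the highest for LGR4 and CTNNB1. Without it LRP5, TCF7 and AXIN1 changed sign over both batches. The cause was not tested. CTNNB1, which encodes beta-catenin, was at 1227 and 1126 CPM in the general libraries of batch 1 and at 765, 907 and 739 CPM in those of batch 2, and at 1078, 1092, 847, 875 and 932 CPM in the HHH libraries in the same order of batches. The spread between batches was larger than that between populations, and the log2 fold change was 0.04 ± 0.09 (adjusted p = 0.848). APC and AXIN1, scaffolds of the destruction complex, had log2 fold changes of 0.12 ± 0.08 (adjusted p = 0.408) and -0.07 ± 0.09 (adjusted p = 0.735). APC was at or above the general mean of its batch in all 5 HHH libraries, by no more than 0.21 on the log2 scale in the plot of ratios by library.

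The 4 TCF/LEF factors did not pass in the fits as designed. TCF7L1, mostly a repressor of target genes in pluripotent cells, and TCF7L2 differed more between batches than between populations. In the 4 libraries of batch 1 TCF7L1 ran from 8.25 to 11.2 CPM, and in the 6 of batch 2 from 14.1 to 19.9 CPM. TCF7L2 was at 8.64 to 10.003 CPM and at 17.1 to 27.0 CPM. Within batch 2 all HHH libraries of TCF7L2, at 21.6, 17.4 and 17.1 CPM, were below the general ones at 22.5, 21.8 and 27.0 CPM (log2 fold change -0.36 ± 0.11, adjusted p = 0.0538). There TCF7L2 passed with the replicate block (adjusted p = 0.0408), DESeq2 (0.0355) and no filter (0.0149). It also passed without HHH batch 2 replicate 1 (0.0206) or general batch 2 replicate 2 (0.0473). In batch 1 its log2 fold change was 0.10 ± 0.15 (adjusted p = 0.843). TCF7 was above the general libraries in batch 1 and below them in batch 2, at 0.27 ± 0.21 (adjusted p = 0.641) and -0.29 ± 0.15 (adjusted p = 0.208). LEF1, the factor most often induced by WNT signals, was at 0.505 and 0.519 CPM in the general libraries of batch 1 and 0.520, 0.666 and 0.633 CPM in those of batch 2. HHH had 0.471 and 0.320 CPM in batch 1 and 0.429, 0.415 and 0.265 CPM in batch 2. The populations did not overlap, but the log2 fold change of -0.58 ± 0.21 did not pass (adjusted p = 0.133).

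Feedback inhibitors are target genes whose products dampen the pathway. NOTUM was at 0.184 and 0.352 CPM in the general libraries of batch 1 and at 0.520, 0.579 and 0.566 CPM in those of batch 2. HHH had 0.107 and 0.0915 CPM in batch 1 and 0.206, 0.138 and 0.212 CPM in batch 2. The populations did not overlap within either batch, and the general library lowest in NOTUM, in batch 1, lay below the highest HHH libraries of batch 2. The log2 fold change was -1.52 ± 0.26 over both batches (adjusted p = 0.00283), a fall of 2.87-fold, and -1.58 ± 0.29 in batch 2 (adjusted p = 0.00403), where it passed the filter through the general libraries only. It was not tested in batch 1. Without the batch term its adjusted p was 0.107.

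AXIN2, the target most used to read canonical activity, was at 16.8 and 18.8 CPM in the general libraries of batch 1 and at 23.6, 19.5 and 22.3 CPM in those of batch 2. HHH had 15.8 and 18.1 CPM in batch 1 and 19.0, 18.1 and 16.3 CPM in batch 2. The populations overlapped in batch 1 and not in batch 2. Its log2 fold change was -0.21 ± 0.09 over both batches (adjusted p = 0.189) and -0.30 ± 0.10 in batch 2 (adjusted p = 0.0564). In batch 2 it passed with the replicate block (adjusted p = 0.0453), DESeq2 (0.0496), no filter (0.0415) and without general batch 2 replicate 2 (0.0287). In GENCODE 44, 25.3% of its exon bases are shared with another gene on the same strand. ZNRF3 and RNF43, ubiquitin ligases that remove Frizzled and LRP6 from the surface, had log2 fold changes of 0.07 ± 0.09 (adjusted p = 0.733) and -0.15 ± 0.16 (adjusted p = 0.625). NKD1, which restrains Dishevelled, had 0.12 ± 0.14 (adjusted p = 0.673).

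**Figure D3:**
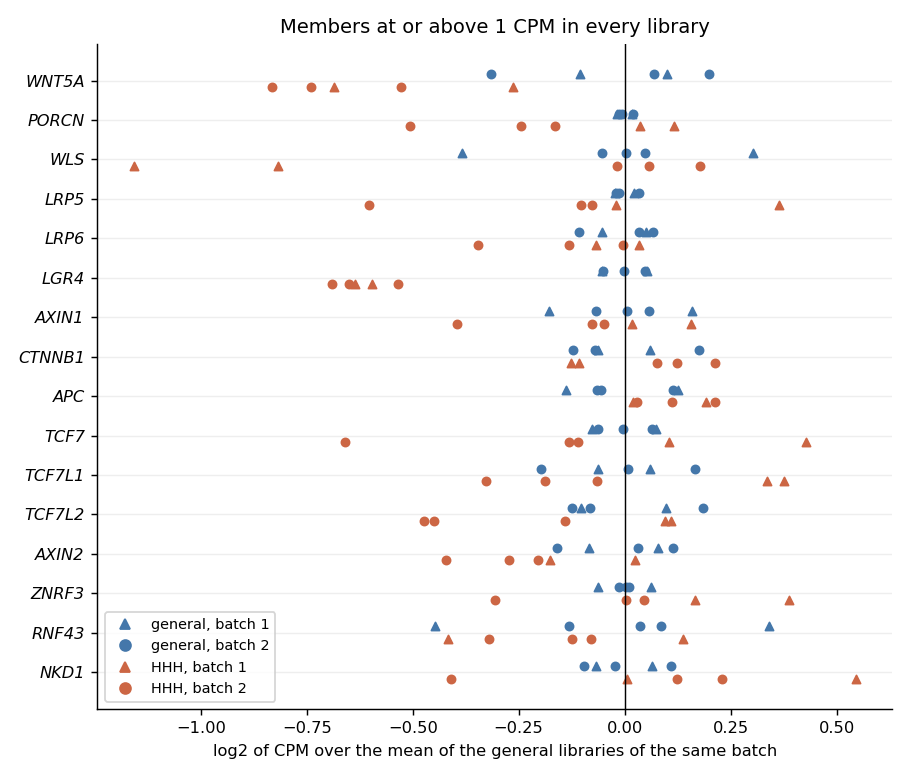
Log2 of the CPM in each library over the mean of the general libraries of its own batch, for the 16 members at or above 1 CPM in every library, with general in blue above HHH in orange, triangles for batch 1 and circles for batch 2. LGR4 and WNT5A lay left of 0 in all 5 HHH libraries, WLS was far left in the HHH libraries of batch 1 only, and APC was right of 0 in all 5.

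Each batch was then fitted alone. In batch 1, 28 members were tested and 1 was lower, LGR4, beside 0.282% of 23720 genes, and 0 were higher, beside 0.291%. At an unadjusted p under 0.05, 4 members were lower, beside 5.47% of all genes, and 1, TCF7L1, was higher, beside 7.07%. In batch 2, 31 members were tested and 8 were lower, beside 8.05% of 24025 genes, and 0 were higher, beside 5.13%. The 8 were WNT4, WNT10B, NOTUM, RSPO1, WNT2B, WNT9A, WNT5A and LGR4, of which WNT4, WNT10B, NOTUM and RSPO1 passed the filter only through the general libraries. At an unadjusted p under 0.05 there were 13 lower, beside 16.0% of all genes, and 1 higher, beside 13.8%. The count in batch 1 was 3, with WLS and WNT4, when both batches shared 1 estimate of the spread or when general batch 1 replicate 2 was left out, and 0 without general batch 1 replicate 1 or HHH batch 1 replicate 2. That in batch 2 fell to 5 without general batch 2 replicate 3. On simulated counts the fit of batch 1 found 20 of 100 genes changed 1.5-fold and 89 of 100 changed 2-fold, and that of batch 2 found 54 of 100 and 98 of 100. Unchanged genes were also called, 3 in batch 1 and 11 in batch 2. Only genes with an expected count over 100 were changed in the simulation. WNT4, WNT2B, WNT10B, RSPO1 and NOTUM stayed below 100 counts in every library, so these shares do not cover them. None of the 28 members tested for a different change in the batches passed (edgeR, interaction term), and 0.777% of all genes passed. At an unadjusted p under 0.05 there were 6 members, beside 18.9% of all genes. DESeq2, which gave an adjusted p for 17 of them, called 1, WLS, at an adjusted p of 0.0245.

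Over both batches, 5 tested members had HHH libraries all below the general ones, namely WNT2B, WNT4, WNT5A, LEF1 and LGR4, beside 2.00% of all genes tested, and 0 had them all above, beside 1.02%. In batch 1 there were 9 such members below and 5 above, where 20.7% and 23.0% of all genes were, and in batch 2 there were 15 below and 1 above, where 18.4% and 17.7% were. Of the 9 below in batch 1, RSPO1 and WNT16 passed the filter only through the general libraries, as did 5 of the 15 below in batch 2 (WNT4, WNT8A, WNT10B, RSPO1 and NOTUM). WNT2B, WNT4, WNT5A, RSPO1, LEF1 and LGR4 were below in both batches. PORCN and TCF7 were above in batch 1 and below in batch 2.

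**Figure D4:**
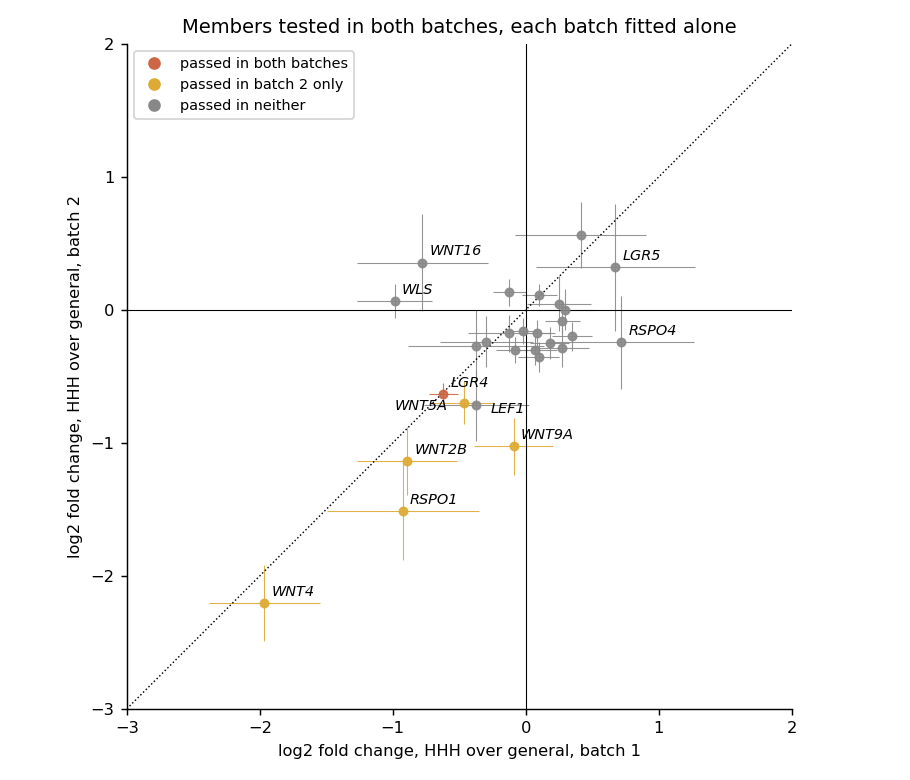
Log2 fold change of HHH over general in batch 2 against batch 1 for the members tested in both, each batch fitted alone, with bars of 1 standard error and the line of equality dotted. LGR4 (orange) passed in both batches, at -0.62 and -0.63, while WLS lay at -0.99 in batch 1 and 0.07 in batch 2.

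Levels of different genes were compared per length, on the deposited log2 RPKM scale, from the mean over the 10 libraries. CTNNB1 was highest at 7.19, followed by LGR4 at 4.30, LRP6 at 3.66, AXIN1 at 2.50, LRP5 at 2.49 and APC at 2.10. AXIN1 and LRP5 differed by less than the spread between libraries of a population, which was 0.06 to 0.22 (SD, n = 5). The feedback inhibitors ZNRF3 and AXIN2 followed at 2.04 and 1.81, ahead of TCF7L1 at 1.51 and TCF7L2 at 1.47. WNT5A was the highest ligand at -1.17, and WNT5B, WNT9A and WNT4 came next at -1.72, -1.94 and -1.98. In the general libraries alone WNT4, at -0.82 ± 0.21 (SD, n = 5), was next to WNT5A at -0.81 ± 0.26, which is within their spread. The gene lengths behind the deposited values are not given in the sources used here. The general means were 3.71 CPM for WNT5A and 1.10 CPM for WNT4, and their GENCODE exon lengths are 7153 and 4650 bases. The lengths differ by a smaller factor than the CPM, so the rank of WNT4 among the ligands rests on the deposited lengths. In HHH, WNT4 was at -3.14 ± 0.59 and below WNT5A at -1.54 ± 0.17, WNT5B at -1.73 ± 0.20, WNT8B at -2.32 ± 0.28, WNT9A at -2.34 ± 0.35 and WNT3 at -2.54 ± 0.16. Of the TCF/LEF factors LEF1 was lowest at -3.57.

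Other genes of the pathway were counted in lists outside the 41 members. For these lists and the marker lists below, the shares of all genes tested over both batches were 3.89% lower and 1.94% higher. Of 17 genes of the destruction complex and cytoplasmic relay, all tested, 1 was lower over both batches and 0 were higher: APC2, a relative of APC expressed in neurons, was at 10.9 ± 5.04 CPM (SD, n = 5) in general and 3.57 ± 0.85 in HHH (log2 fold change -1.51 ± 0.22, adjusted p = 0.000854). APC2 was at -0.89 in batch 1 (adjusted p = 0.359) and -1.90 in batch 2 (5.64e-07). Of 14 nuclear partners of beta-catenin, 1 was lower, the corepressor TLE4 (-0.35 ± 0.09, adjusted p = 0.0329), and 0 were higher. In batch 1, 0 of the 17 and 0 of the 14 were lower, beside 0.282% of all genes, and in batch 2, 3 and 4 were, beside 8.05%. The median of the 14 was 0.14 in batch 1 and -0.13 in batch 2. BCL9L and TLE3 passed in the interaction test (lowest adjusted p = 0.0301), beside 0.777% of all genes. Of 15 non-canonical receptors and planar polarity genes, 4 were lower and 0 higher, among them the cadherins CELSR2 (-0.74 ± 0.15, adjusted p = 0.00699) and CELSR1 (-0.58 ± 0.14, adjusted p = 0.0249) and the polarity gene PRICKLE1 (-0.37 ± 0.07, adjusted p = 0.00730). In batch 1, 0 of these 15 were lower, beside 0.282% of all genes, and in batch 2, 8 were, beside 8.05%. CELSR2 was at -0.19 in batch 1 (adjusted p = 0.606) and -1.10 in batch 2 (1.77e-05), a difference that, alone in this list, passed in the interaction test (0.0248). CELSR1 was at -0.16 (adjusted p = 0.775) and -0.86 (0.000222). Over both batches the median log2 fold changes of these 3 lists were -0.07, -0.11 and -0.18, beside 0.02 for all genes.

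Of 15 transcriptional targets outside the members, 9 were tested, 1 was lower and 2 were higher, with a median of 0.39. TNFRSF19, a receptor of the TNF family, fell from 5.45 ± 1.90 CPM in general to 0.683 ± 0.161 CPM in HHH (-2.96 ± 0.20, adjusted p = 1.23e-06), and it passed in batch 1 (adjusted p = 0.00707) and in batch 2 (3.93e-07). MYC, a regulator of growth, rose by 0.45 ± 0.08 (adjusted p = 0.00261) and BAMBI, a pseudoreceptor that dampens TGF-beta signals, by 0.41 ± 0.09 (adjusted p = 0.0179). Of 10 genes for ligand maturation and receptor turnover outside the members, 9 were tested, 1 was lower, the glypican GPC4 (-0.45 ± 0.07, adjusted p = 0.00212), and 0 were higher, with a median of 0.09.

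Of the marker lists of other cell types, only that of early neural markers had more genes pass as lower than as higher over both batches. Of 11 early neural markers, 6 were tested over both batches and 3 were lower in HHH (LHX5, ZIC1 and SOX1), with a median log2 fold change of -0.86, and 0 were higher. LHX5 and ZIC1 passed the filter there only through the general libraries, so they had to differ. The summed level of the 11 was 5.65 to 8.38 CPM in the general libraries of batch 1 against 4.86 to 7.59 CPM in HHH, and 9.45 to 14.99 CPM against 2.30 to 3.16 CPM in batch 2. In batch 1 FEZF2, a marker of the list, was higher in HHH, at 3.11 and 5.22 CPM against 0.0306 and 0.0335 CPM, and LHX5 was lower (log2 fold change -4.23, adjusted p = 0.0158). There FEZF2 passed the filter only through HHH and LHX5 only through the general libraries, so both had to differ. Without FEZF2 the sum in batch 1 was 5.61 to 8.34 CPM in general and 1.76 to 2.38 CPM in HHH. In batch 2, 4 of 8 tested were lower and SIX6 was higher, beside 8.05% and 5.13% of all genes. The 4, LHX5, SIX3, ZIC1 and SOX1, passed the filter in batch 2 only through the general libraries, so they had to differ. No marker of this list was at 0 in every library of a population. The summed level of 9 primitive streak and mesoderm markers was 5.11 to 7.35 CPM in general and 4.73 to 6.91 CPM in HHH, with 4 tested and none passed over both batches. In batch 2, 2 of 5 tested were lower, beside 8.05% of all genes: TBX6 and TBXT, the latter also on the list of transcriptional targets. TBXT passed the filter in batch 2 only through the general libraries. The summed level of 6 endoderm markers was 1.18 to 2.01 and 1.04 to 2.85 CPM, with 1 tested and not passed and GATA6 below the limit of detection in every library. That of 7 amnion and trophoblast markers was 8.56 to 13.8 and 7.91 to 11.3 CPM, with KRT7 lower and GABRP higher of 3 tested. That of 6 fibroblast markers was 259.5 to 278 and 288 to 342 CPM, with COL1A1 lower and THY1 higher of 3 tested. The higher sum in HHH was that of THY1, at a mean of 141 CPM in general and 216 CPM in HHH. COL1A1 went from 24.2 to 12.8 CPM, and COL1A2, which did not pass over both batches, from 105 to 86.4 CPM. The log2 fold change of COL1A1 was -0.34 in batch 1 (adjusted p = 0.428) and -1.35 in batch 2 (7.01e-06). This difference passed in the interaction test (adjusted p = 0.0316). COL3A1, DCN and LUM reached at most 0.122 CPM, and DCN stayed below the limit of detection in every library. The part of these cell types in the changes of WNT4, WNT2B, WNT5A, LGR4 and NOTUM was not tested.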

How the data were processed

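RNA of 10 libraries was sequenced from TruSeq preparations of total RNA. The authors deposited whole counts per Ensembl gene without normalization, and a second table of log2 RPKM values, handled as a score, that the authors made with a batch term subtracted per gene (batch means equal to 9.2e-14 over 27641 genes). That table was used only to compare levels between genes, since its median over 23495 genes was 0.12 lower in HHH. The submitters' processing notes name CASAVA 1.8.2, R 3.2.2, limma 3.26.9 and the build GRCh37. The aligner, counter and annotation are not given in the sources used here. Symbols and overlaps came from GENCODE 44 (GRCh38), matching 88.5% of identifiers, and promoters from RefSeq. Identifiers without a symbol took 7.44% to 20.3% of the counts of a library and stayed in library sizes and tests.

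Counts were filtered with filterByExpr (minimum count 10), scaled by TMM and tested in R 4.3.3 by the two-sided quasi-likelihood test of edgeR 4.0.16, and p-values were adjusted by Benjamini-Hochberg across every gene tested. Batch was an additive term over both batches, and each batch was also fitted alone, as was the interaction. A gene passed at an adjusted p under 0.05. The standard error was the log2 fold change over the square root of F. On simulated counts the fit over both batches found 100 of 100 genes changed 2-fold and 86 of 100 changed 1.5-fold, and called 11 unchanged genes. Only genes with an expected count over 100 were changed, so these shares do not cover members with fewer counts. The counts were drawn with 1 biological coefficient of variation for all genes (0.128) and no batch effect, unlike the data.

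The members and all lists were chosen with earlier results of these data known. Named in full were members with a mean of at least 1 CPM in either population or an adjusted p under 0.05 in any comparison, 24 in all, and for each other list at most the 3 genes with the largest change among those that passed. Same-numbered libraries of a batch deviated together from their group means in batch 2 (r = 0.239, 0.143 and 0.113), all over 0.1. These values are low, so whether the numbers mark pairs stayed uncertain. The fits as designed did not use a pairing. With the replicate block, 6 members in place of 5 were lower over both batches, and 11 in place of 8 in batch 2. In batch 1, with 2 libraries a group, r = 0.113 also holds for general replicate 1 and HHH replicate 3, so it does not bear on the pairing. The replicate block was an alternative, as were no batch term, RLE, library size only, no filter, DESeq2 1.42.0, limma 3.58.1 with voom, 4 groups in 1 fit and each library left out.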

Additional observations from a re-analysis of the deposited data

Results flagged for a closer look

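In 2 of the 48 groups of 5 libraries, over the 24 members named in full, 1 library lay far from the others by Dixon's criterion, which chance exceeds in about 1 in 20 groups. WLS in general batch 1 replicate 1 was at 4.43 CPM, with the other general libraries at 2.75 to 3.00 CPM. PORCN in HHH batch 2 replicate 3 was at 5.65 CPM, with the other HHH libraries at 6.75 to 7.17 CPM. Without general batch 1 replicate 1 the log2 fold change of WLS in batch 1 was -0.60 (adjusted p = 0.863).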

How the results depend on the processing

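In the comparisons in which a member passed, its direction held under every alternative run. WNT9A in batch 1, where it did not pass, was positive without HHH batch 1 replicate 3 (0.035) and general batch 1 replicate 2 (0.072). Over both batches 5 members were lower: 2 with no batch term (WNT4 and LGR4), 9 with no filter (also WNT8A, WNT9A, WNT10B and RSPO1), and 4 to 8 when a library was left out, where the filter also admits other genes. In batch 1 the count of 1 became 0 with limma and voom, 3 with no filter, 3 with 4 groups in 1 fit, and 0 to 3 when a library was left out, and with library size only the 1 was WNT4 in place of LGR4. In batch 2 the count of 8 became 7 with DESeq2, 9 with limma and voom, 11 with no filter and 6 with 4 groups in 1 fit. It was 5 to 10 when a library was left out. No member was higher under any alternative, with a range of 0 to 0. The interaction count of 0 became 1 (WLS) with no filter and with DESeq2, and was 0 to 1 when a library was left out. With the replicate block 6 members were lower over both batches and 11 in batch 2, and it changed no call other than those of WNT9A, WNT8A, AXIN2 and TCF7L2. Of the 19 ligands, 14 were below 1 CPM in every library by library size only and 11 were below 0.5 CPM. The cause of these changes was not tested. DESeq2 gave no adjusted p for WNT10B, RSPO1 and NOTUM in batch 2.

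Members that did not pass changed sign. TCF7L1 was at -0.035 with no batch term, -0.077 with the replicate block and -0.019 with library size only, and at -0.049 to 0.096 when a library was left out. RSPO4 was at -0.015 with no batch term, -0.024 with library size only and -0.21 to 0.47 when a library was left out. With the replicate block ZNRF3 was at -0.0064 and NKD1 at -0.023. When a library was left out WNT16 was at -0.26 to 0.073, LRP5 at -0.17 to 0.033, TCF7 at -0.16 to 0.052, AXIN1 at -0.14 to 0.0033 and CTNNB1 at -0.014 to 0.081. Of 585 single-member settings 542 kept direction and call, 15 lost a call, 5 gained one and 23 changed sign. These settings covered all members tested over both batches, but within a batch only the members that had passed there. All 5 gains were thus of WNT9A over both batches. Gains within a batch by other members were not counted, such as WLS and WNT4 in batch 1 and WNT8A, TCF7L2 and AXIN2 in batch 2.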
